A study of Mus musculus with 82 samples.

Results

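The 10 genes described here (Srebf1, Fasn, Acaca, Acly, Scd1, Scd2, Elovl6, Thrsp, Me1 and Acss2) encode enzymes and regulators of fatty acid synthesis. They were taken by name from the deposited count table of mouse mammary tumours, and all 10 of 10 were found among its 47480 genes and passed the filter on low counts that kept 22847 genes. RNA sequencing covered 82 untreated tumours of 13 models: KPB1-A with 2 libraries, T12 and E0771 with 3 each, 2224 with 4, MMTV-PYMT, 4T1 and 2336 with 5 each, 9263 and 2153 with 7 each, MMTV-NEU with 8, 2225 with 10, 2250 with 11 and 2208 with 12. MMTV-NEU, MMTV-PYMT and KPB1-A grew on FVB (15 libraries), E0771 on C57BL/6 (3 libraries) and the other 9 models on BALB/c (64 libraries), so strain and model cannot be told apart. Beyond model name, strain and tissue the sample labels gave no genotype, age or agent for any group. The series' design text calls the tumours individual and untreated and the libraries of a model biological replicates, but whether each came from its own mouse is not given, and the p-values rest on the spread between libraries alone. By their names, MMTV-NEU and MMTV-PYMT carry an oncogene, the receptor gene Neu (Erbb2) or the polyoma virus middle T antigen, behind the promoter of the mouse mammary tumour virus, which is active in mammary epithelium.

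Cells make fatty acids from acetyl-CoA, which the cytosol receives mainly from citrate. Acetyl-CoA carboxylase turns it into malonyl-CoA, fatty acid synthase joins these units into palmitate with electrons from NADPH, and elongases and desaturases then lengthen the chain and place double bonds. SREBP-1, the product of Srebf1, is a transcription factor that switches on most genes of this pathway. In the mammary gland the pathway is known for its rise in lactation, when the epithelium makes milk fat, and it is also highly active in fat tissue.

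Promoter windows of 250 bases before a transcription start (RefSeq, GRCm38.p6) were found for 8 of the 10 genes, 11 windows in all, and none was matched for Scd1 and Scd2. The windows of Fasn, the synthase, and of the internal start of Srebf1 are shown because both genes stood high in the same models and both windows hold a CCAAT box close to the start. Capitals mark each CCAAT or its reverse complement ATTGG, and both windows lie on chromosome 11, minus strand (Fasn chr11:120824548-120824797, Srebf1 chr11:60210472-60210721), reading 5′ to 3′ towards the start.
Fasn: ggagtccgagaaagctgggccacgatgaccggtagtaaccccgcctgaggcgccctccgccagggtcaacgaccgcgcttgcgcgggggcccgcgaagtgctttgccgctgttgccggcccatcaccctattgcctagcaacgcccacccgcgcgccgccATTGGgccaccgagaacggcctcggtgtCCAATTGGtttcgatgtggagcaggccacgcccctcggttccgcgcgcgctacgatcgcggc
Srebf1: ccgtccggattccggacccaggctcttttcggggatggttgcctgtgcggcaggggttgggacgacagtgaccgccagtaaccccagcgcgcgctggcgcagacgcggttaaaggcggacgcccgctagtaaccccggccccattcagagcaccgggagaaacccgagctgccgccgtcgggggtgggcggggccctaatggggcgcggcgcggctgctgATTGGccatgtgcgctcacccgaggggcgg
In the Fasn window the matches began 90, 62 and 59 bases before the start, the last 2 overlapping, and in the Srebf1 window 30 bases before it. Searched on both strands, CCAAT lay in 6 of the 11 windows, against 33.8% of 32851 RefSeq windows of the same length. The GC box GGGCGG lay in 5 of 11 (32.7% of all windows). Neither TCACNCCAC, a form of the sterol response element that SREBP-1 binds (1.05% of all windows), nor the E-box CACGTG (6.02%) was found in any of the 11, which says only that these letters are not in these windows.

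Total counts per library ran from 14444938 to 132712507 (median 58193845), and levels below are CPM (counts relative to the library total) scaled by TMM, which corrects for composition. Erbb2, the gene named by the MMTV-NEU label, reached 8417 to 17975 CPM in the 8 libraries of that model, against 64.5 to 111 CPM in the 5 of MMTV-PYMT. Checked against the mammary label, the summed level of 6 epithelial markers was 234 to 338 CPM in T12 and 363 to 396 CPM in E0771, and at least 703 CPM in every library of the other 11 models. In bulk tumour RNA, fewer cells of a type and less RNA per cell cannot be told apart.

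All 10 genes differed among the 13 models by the F test of edgeR (adjusted p of at most 5.07e-12), as did 98.2% of the 22847 genes tested, so that this count says little about the pathway. The spread of levels between models was widest for Thrsp, Scd1 and Srebf1 and narrowest for Acaca, Fasn and Acly. Between the models with the highest and lowest means it was 52.3-fold for Scd1, 26.3-fold for Srebf1, 20.5-fold for Acss2, 16.2-fold for Me1, 5.93-fold for Scd2, 4.08-fold for Elovl6, 3.86-fold for Acly, 3.57-fold for Fasn and 2.82-fold for Acaca. When models were ranked by their mean, the ranges of neighbouring models overlapped at all 12 steps for Srebf1, Fasn, Acaca, Acly, Elovl6 and Me1, at 11 for Scd2 and Thrsp, and at 10 for Scd1 and Acss2. Compared per length (CPM per kb of exon), Scd1 led in MMTV-NEU at 577 ± 222 (SD, n = 8), ahead of Srebf1 at 425 ± 227 and Scd2 at 212 ± 126, while Fasn stood at 73.3 ± 22.3 and Acss2 lowest at 3.05 ± 0.676. In 4T1 the order was another one, with Scd2 first at 129 ± 11 CPM per kb (SD, n = 5) and Scd1 only at 11 ± 4.82.

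**Figure D1:**
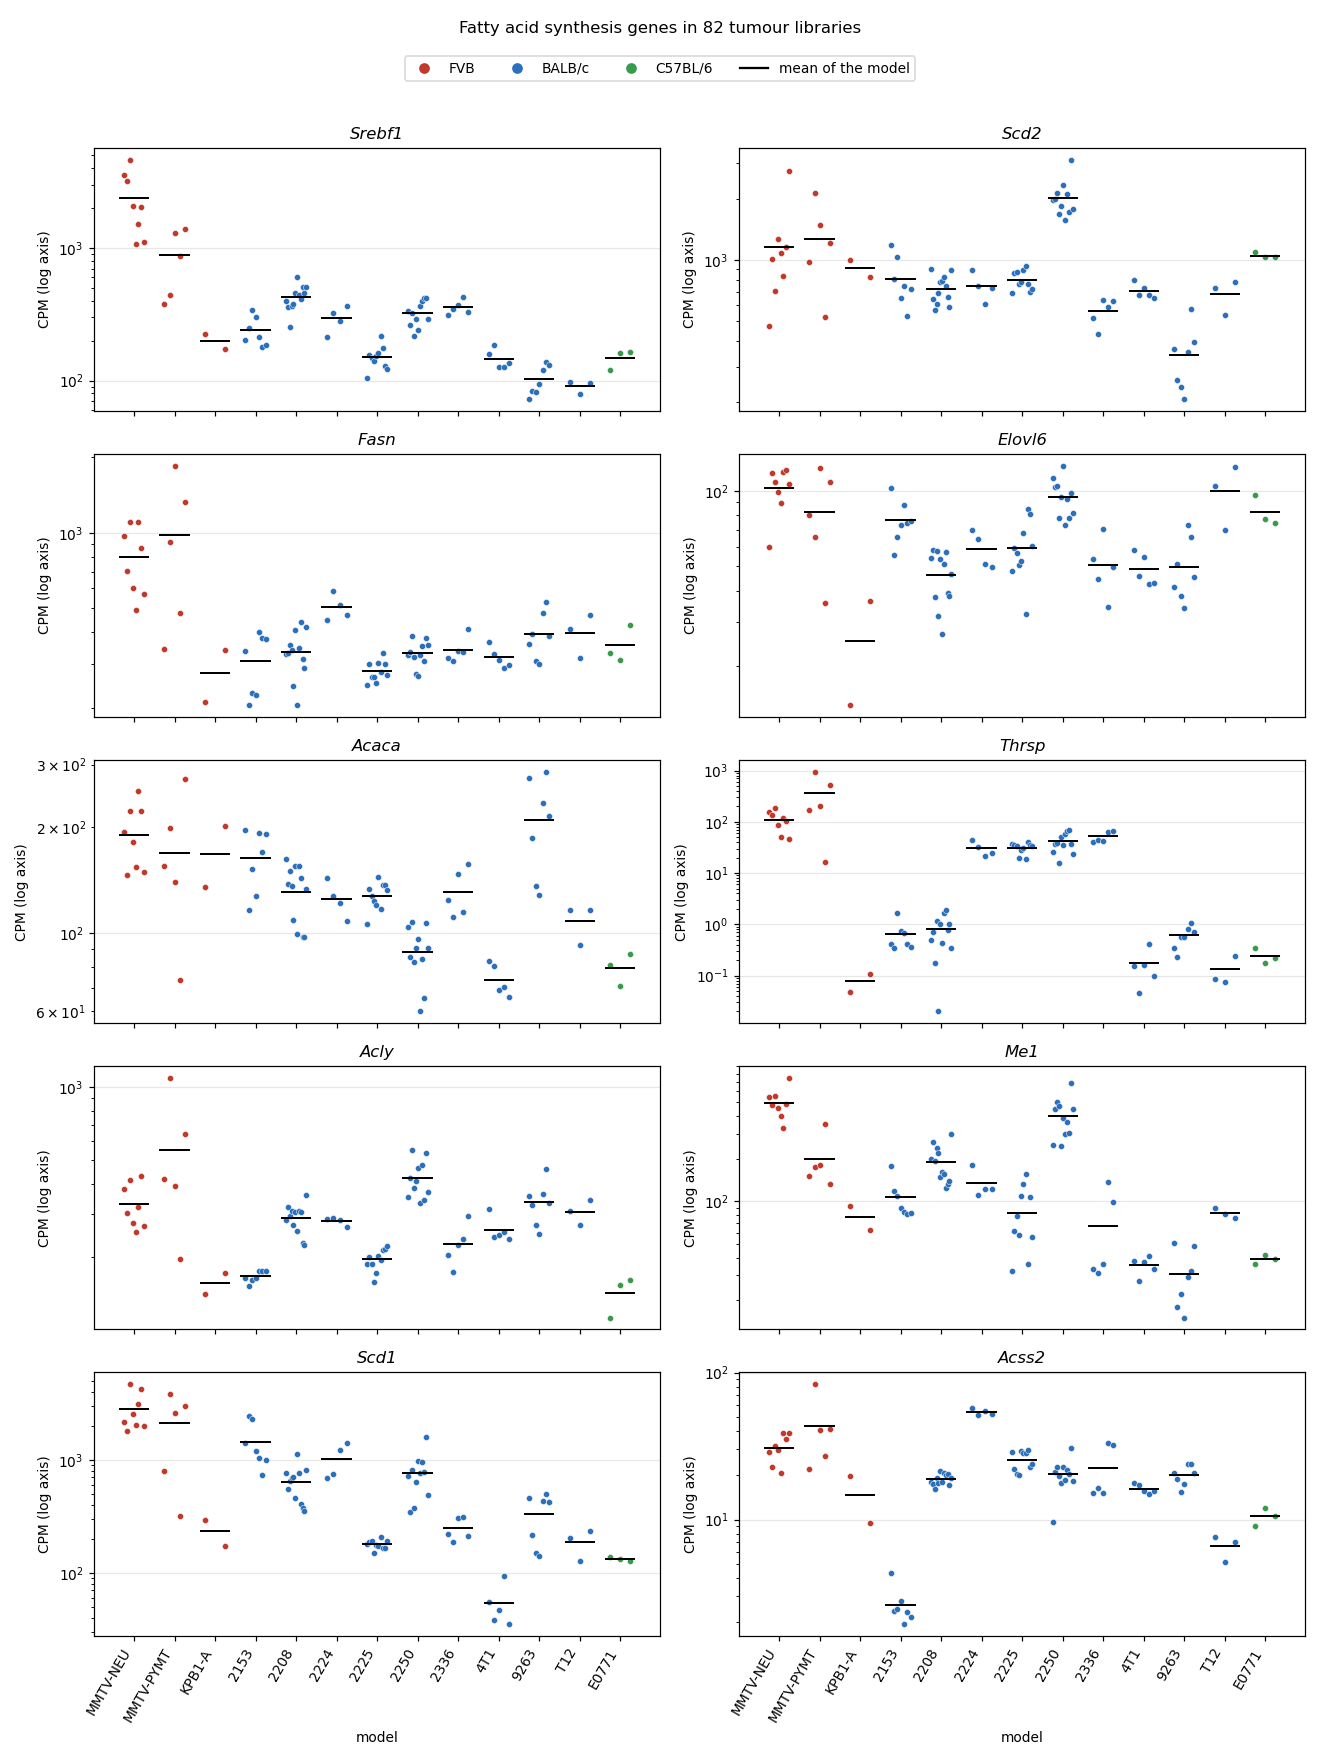
Level of each of the 10 genes in every library (CPM, log axis) by model, with points coloured by strain and a black line at the model mean. Srebf1 and Scd1 were highest in MMTV-NEU, and Thrsp split the models into 6 with means of 30.5 CPM or more and 7 with means of at most 0.8 CPM (the point at 0.02 for Thrsp in 2208 is a library with 0 counts).

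The pathway's regulator, Srebf1 (ENSMUSG00000020538.15, chr11:60199089-60222581 on mm10), was highest in MMTV-NEU. Its 8 libraries there ran from 1072 to 4632 CPM with a median of 2042 CPM, and the 5 of MMTV-PYMT measured 381, 445, 1297, 874 and 1399 CPM. No library of the other 11 models exceeded 602 CPM, reached in 2208. All 8 MMTV-NEU libraries were thus above all 67 libraries on BALB/c and C57BL/6, as was true of 2% of all genes tested, and 6 of the 8 were above every library of the series. For 0 of the 10 genes were all 8 above the 74 other libraries (0.49% of all genes), and for 0 did they stand wholly above (2.89%) or below (2.31%) the MMTV-PYMT libraries. Among the remaining models the means fell from 428 ± 88.8 CPM in 2208 (SD, n = 12) to 103 ± 26.1 CPM in 9263 (SD, n = 7) and 90.9 ± 9.71 CPM in T12 (SD, n = 3).

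Thrsp (ENSMUSG00000035686.8, chr7:97412938-97417730) encodes Spot 14, a small protein of lipid-making tissues that is induced with fatty acid synthesis and is known in the lactating mammary gland. It behaved almost as a present or absent gene. In MMTV-PYMT it measured 169, 941, 205, 16.6 and 521 CPM, and in MMTV-NEU 45.5 to 184 CPM with a median of 111 CPM. The 4 BALB/c models 2336 (mean 51.7 ± 13.1 CPM, SD, n = 5), 2250 (41.4 ± 17.3, n = 11), 2225 (31.3 ± 7.16, n = 10) and 2224 (30.5 ± 9.95, n = 4) also expressed it. In the remaining 7 models no library exceeded 1.88 CPM, and the lowest library of the 6 expressing models was at 15.6 CPM, so the 2 sets did not overlap. The 2 KPB1-A libraries, on the same strain as MMTV-NEU and MMTV-PYMT, were at 0.0473 and 0.107 CPM.

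Acly (ENSMUSG00000020917.17, chr11:100476353-100528000) encodes ATP citrate lyase, which splits citrate into acetyl-CoA. The 5 MMTV-PYMT libraries measured 420, 1091, 393, 196 and 643 CPM, and 2250 followed with 334 to 550 CPM (median 409 CPM, n = 11). The lowest level was in E0771, at 112, 153 and 160 CPM, below every library of MMTV-NEU (252 to 429 CPM, median 311 CPM). Acss2 (ENSMUSG00000027605.18, chr2:155517948-155585724), which makes acetyl-CoA from acetate instead, followed another order. It was highest in 2224 at 57.9, 51.4, 54.6 and 52.5 CPM and lowest in 2153, where the 7 libraries ran from 1.96 to 4.35 CPM with a median of 2.38 CPM, below every other library of the series. Exons of Acss2 overlap exons of Gss, Ggt7 and Acss2os on 9.12% of their bases, and the strand of counting was not given, so part of its count may belong to those genes. Me1 (ENSMUSG00000032418.15, chr9:86581371-86695953), malic enzyme, a source of NADPH, was highest in MMTV-NEU (329 to 745 CPM, median 481 CPM) and 2250 (246 to 692 CPM, median 388 CPM). It was lowest in 9263, at 15.1 to 50.9 CPM with a median of 29.0 CPM.

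Acaca (ENSMUSG00000020532.18, chr11:84129672-84401651) encodes acetyl-CoA carboxylase 1, which commits acetyl-CoA to synthesis. It was highest in 9263 (128 to 286 CPM, median 214 CPM, n = 7), followed by MMTV-NEU (146 to 253 CPM, median 187 CPM), and lowest in 4T1, at 83.1, 80.7, 69.2, 70.3 and 65.9 CPM. Of the 50-base stretches of Acaca transcripts 30.4% also occurred in other genes, nearly all in the pseudogene Gm5182 (29.2%), and for Me1 the share was 28.3% (21.1% in Gm7049), so the levels of both may depend on how the authors assigned shared reads. The deposited count was whole in 100% of libraries for Acaca and in 7.32% for Me1. Fasn (ENSMUSG00000025153.9, chr11:120805846-120824547), with no 50-base stretch found in another gene, measured 343, 915, 1852, 478 and 1326 CPM in MMTV-PYMT and 493 to 1108 CPM in MMTV-NEU (median 788 CPM). The 4 libraries of 2224 came next at 447, 585, 515 and 469 CPM. The means of the other 10 models lay close together, from 275 ± 90.8 CPM in KPB1-A (SD, n = 2) to 398 ± 76.8 CPM in T12 (SD, n = 3).

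Elovl6 (ENSMUSG00000041220.10, chr3:129532355-129638495), the elongase that carries palmitate to stearate, had means of 103 ± 20.3 CPM in MMTV-NEU (SD, n = 8), 99.8 ± 27.8 CPM in T12 (n = 3) and 94.9 ± 16.5 CPM in 2250 (n = 11), with overlapping ranges. KPB1-A was lowest at 13.9 and 36.4 CPM. Scd1 (ENSMUSG00000037071.3, chr19:44394455-44407879) and Scd2 (ENSMUSG00000025203.6, chr19:44293674-44306864) encode stearoyl-CoA desaturases, which place the first double bond. Scd1 ran from 1787 to 4678 CPM in MMTV-NEU (median 2365 CPM), measured 791, 3819, 2596, 320 and 2994 CPM in MMTV-PYMT, and reached 739 to 2417 CPM in 2153 (median 1201 CPM). In 4T1 it was only 55.4, 38.3, 46.5, 93.8 and 35.5 CPM, below every library of the other models. Scd2 was instead highest in 2250 (1577 to 3113 CPM, median 1972 CPM) and lowest in 9263 (207 to 577 CPM, median 352 CPM). In 4T1, where Scd1 was lowest, Scd2 measured 800, 674, 733, 672 and 655 CPM and stood 10th of the 13 models by its mean.

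Each model was then compared on the log2 scale with the average of the remaining 12 models, each weighted equally, in the fit of edgeR that gave the F test. In MMTV-NEU all 10 genes were higher (edgeR, Benjamini-Hochberg adjusted p of at most 0.00332), where 34% of all genes tested were higher and 28.4% lower (62.4% in either direction). Their median log2 difference was 0.996, beside −0.02 over all genes. The largest differences were those of Thrsp (5.37 ± 0.26, SE), Srebf1 (3.40 ± 0.13), Scd1 (2.92 ± 0.18) and Me1 (2.45 ± 0.17), the last 3 being 10.5-fold, 7.58-fold and 5.48-fold. Fasn was 2.14-fold higher, with a log2 difference of 1.10 ± 0.12, while Acss2 (0.90), Elovl6 (0.76), Acaca (0.60), Scd2 (0.51) and Acly (0.36) differed by less than that. Scd2 did not pass without MMTV-NEU replicate 8 (0.20, edgeR adjusted p = 0.194). Against the mean of the other 2 FVB models alone, 6 of the 10 were higher, beside 20.7% of all genes: Srebf1 (2.52), Fasn (0.63), Scd1 (2.01), Elovl6 (1.17), Thrsp (4.33) and Me1 (2.01). That mean takes in KPB1-A, where Thrsp averaged 0.0773 CPM. Against MMTV-PYMT alone, only Srebf1 (1.44) and Me1 (1.33) of these 6 were higher. Thrsp was then lower (−1.76), and Fasn (−0.29), Scd1 (0.42) and Elovl6 (0.31) were not called.

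In MMTV-PYMT all 10 genes were higher as well (edgeR adjusted p of at most 0.0258), against 31% of all genes tested (20.5% were lower, 51.5% either). The median log2 difference was 1.28, beside 0.04 over all genes. Thrsp again differed most (7.27 ± 0.28, SE), followed by Scd1 (2.46 ± 0.22), Srebf1 (1.83 ± 0.16), Fasn (1.41 ± 0.15), Acss2 (1.41 ± 0.14) and Acly (1.16 ± 0.13). Me1 (1.01), Scd2 (0.66), Elovl6 (0.42) and Acaca (0.41) had the smaller differences. The 5 libraries were uneven: replicate 4 had the lowest Acly, Scd1, Scd2 and Thrsp, and replicate 2 the highest Acly, Scd1, Scd2 and Thrsp. Without replicate 2 Thrsp was 6.57 and Scd2 (0.39, edgeR adjusted p = 0.0804) and Acaca (0.34, 0.0565) did not pass. Acaca was also lost without replicate 5 (0.16, edgeR adjusted p = 0.379), as was Elovl6 without replicate 3 (0.24, 0.300) or replicate 5 (0.31, 0.170). Against the other FVB models alone 6 of 10 were higher, beside 17.1% of all genes, and the difference of Acaca turned to −0.09 (edgeR adjusted p = 0.771). This reference also took in KPB1-A. Against MMTV-NEU alone 2 genes, Thrsp and Acly, were higher in MMTV-PYMT, neither of them without replicate 2.

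Markers of other tissue also differed in these 2 models, where 34% (MMTV-NEU) and 31% (MMTV-PYMT) of all genes were higher and 28.4% and 20.5% lower. All 12 adipocyte markers were higher in MMTV-NEU and all 12 in MMTV-PYMT, with a median log2 difference of 3.96 and 2.48. Their summed level in MMTV-NEU replicates 1 to 8 was 530, 34.0, 713, 27.2, 20.8, 1371, 747 and 193 CPM, and in MMTV-PYMT replicates 1 to 5 it was 134, 32.8, 62.0, 19.1 and 1190 CPM, against 23.5 to 317 CPM in the 67 libraries on other strains. Adipoq, Cidec and Lep were at 0 in MMTV-NEU replicates 4 and 5, where Srebf1 was 2060 and 1072 CPM, Scd1 2555 and 2043 CPM and Thrsp 88.5 and 50.5 CPM. In MMTV-PYMT replicate 2, with the highest Thrsp, 7 of the 12 adipocyte markers were at 0. Leaving out every library of the series with more than 100 CPM of these markers, a step chosen after seeing the data, left 3 MMTV-NEU and 3 MMTV-PYMT libraries. Of the 10 genes 7 were then higher in MMTV-NEU, where 27.6% of all genes were, with Srebf1 at 3.17, Thrsp at 5.27 and Scd1 at 2.46, while Acaca (0.37, edgeR adjusted p = 0.0534), Scd2 (0.42, 0.0764) and Acly (0.08, 0.824) did not. In MMTV-PYMT 8 of 10 were higher (24.8% of all genes), without Acaca (0.14, edgeR adjusted p = 0.568) and Elovl6 (0.28, 0.360). Markers of milk protein synthesis moved the same way (8 of 8 higher in each of these models, summed levels of 25265 to 60834 CPM in MMTV-NEU and 8837 to 23784 CPM in MMTV-PYMT, against 0.0171 to 16525 CPM on the other strains). These calls are on the log2 scale. In CPM some means in MMTV-PYMT were below the average of the other models, which takes in MMTV-NEU. They were Csn1s1 (178 against 652), Csn1s2a (46.9 against 380), Csn1s2b (0.536 against 2.66), Lalba (408 against 502) and Glycam1 (2.46 against 5.04). Csn2, Csn3 and Wap were above it. In 2250, 7 of the 8 milk protein markers were higher as well. Of the 6 epithelial markers 5 were higher in MMTV-NEU and 6 in MMTV-PYMT, with 0 lower (median log2 differences of 1.91 and 2.23). All 6 were also higher in 2153, 2208, 2225 and 2250. Their sums (3154 to 4778 CPM in MMTV-NEU, 2997 to 4477 CPM in MMTV-PYMT) lay within the 234 to 7227 CPM of the other strains. Of the 6 brown adipocyte markers 5 were higher in MMTV-NEU and 6 in MMTV-PYMT (2.94 and 3.29), with 0 lower. Their sum was 29.4 to 85.9 CPM in MMTV-NEU, where Ppargc1a alone averaged 30.4 CPM. The median of the sum in MMTV-PYMT was 17.1 CPM, beside 16.2 CPM on the other strains. Ucp1 was 33.3 CPM in MMTV-NEU replicate 6 and at most 1.46 CPM in the other replicates of that model. In MMTV-PYMT it was 39.1 CPM in replicate 5 and at most 0.653 CPM in the other replicates. Of the 7 macrophage markers 0 rose and 4 fell in MMTV-NEU, of the 7 fibroblast markers 0 rose and 4 fell, and of the 7 muscle markers 4 rose. In MMTV-PYMT the counts were 0 and 2 for macrophage, 0 and 1 for fibroblast and 6 and 0 for muscle markers, and the part of any of these cells in the 10 genes was not tested beyond the left-out libraries.

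**Figure D2:**
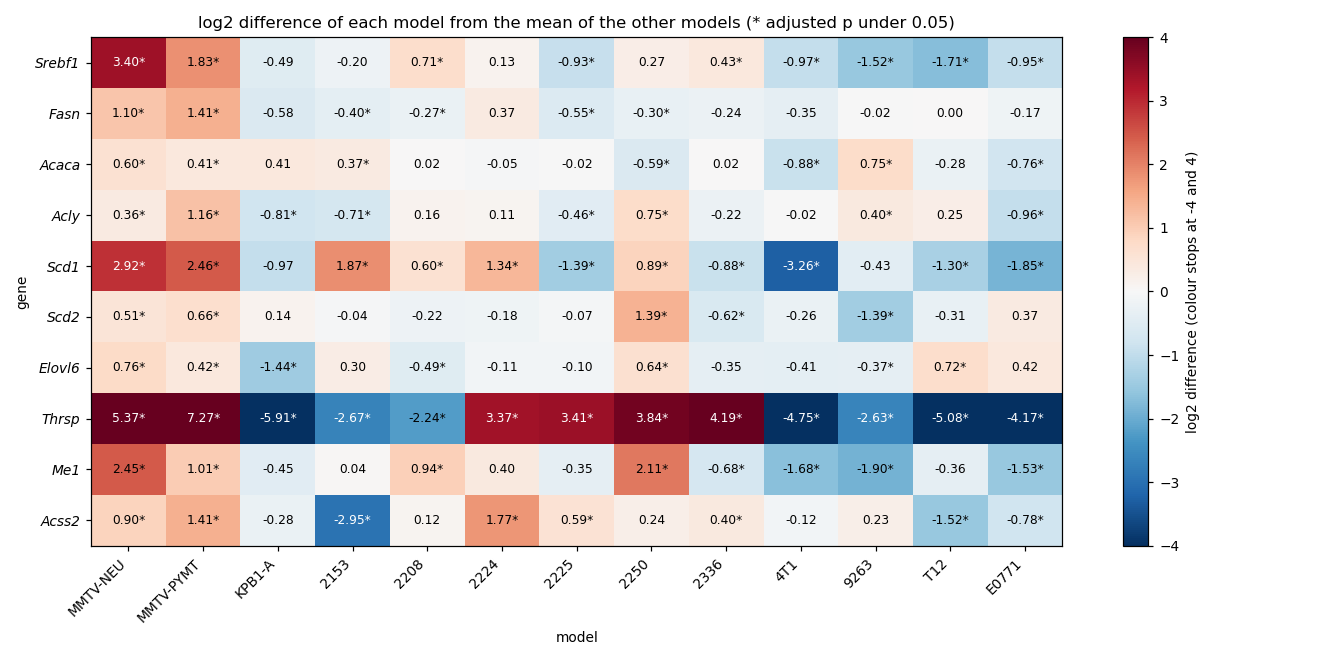
Log2 difference of each model (columns) from the mean of the other 12 models for each gene (rows), red for higher and blue for lower with the colour held beyond 4 and −4, with an asterisk where the edgeR adjusted p was under 0.05. MMTV-NEU and MMTV-PYMT are red for all 10 genes, and E0771, 4T1 and KPB1-A hold no gene that passed as higher.

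MMTV-NEU and MMTV-PYMT, which share their strain and promoter, were compared with each other. Of the 10 genes 4 differed (edgeR, adjusted p under 0.05), beside 27.7% of all genes tested (12.5% higher, 15.1% lower). Srebf1 was 2.72-fold higher in MMTV-NEU (log2 difference 1.44 ± 0.25, SE, adjusted p = 4.52e-06), with 6 of 8 libraries above every MMTV-PYMT library, and Me1 was 2.52-fold higher (1.33 ± 0.32, adjusted p = 0.000658), with 7 of 8 above. Thrsp was lower in MMTV-NEU (−1.76 ± 0.42, adjusted p = 0.000828), as was Acly (−0.73 ± 0.17, adjusted p = 0.000519), but the ranges of the 2 models overlapped for both. Without MMTV-PYMT replicate 2 neither of these passed (−1.06, edgeR adjusted p = 0.0597 for Thrsp and −0.32, 0.123 for Acly), which left 2 genes. Fasn (−0.29 ± 0.20, SE), Scd1 (0.42 ± 0.34), Scd2 (−0.14 ± 0.22), Elovl6 (0.31 ± 0.21), Acaca (0.18 ± 0.17) and Acss2 (−0.48 ± 0.20) were not called, which does not show that their levels were equal. The library numbers in the labels form runs of neighbouring numbers, and with the run as a term, in a fit of the 5 libraries of each model in the later runs, Me1 alone passed (1.29, edgeR adjusted p = 0.0277), while Srebf1 was 0.99 (adjusted p = 0.103). Without the libraries above 100 CPM of adipocyte markers Srebf1, Acly and Thrsp still passed and Me1 did not (0.92, edgeR adjusted p = 0.180).

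In none of the other 11 models were all 10 genes called. Those called went the same way in 2224, 4T1, E0771 and KPB1-A and both ways in the rest. In 2250, 8 of the 10 passed (59.8% of all genes tested did, 32.1% higher and 27.7% lower), 6 of them higher: Thrsp (3.84 ± 0.24, SE), Me1 (2.11 ± 0.15), Scd2 (1.39 ± 0.12), Scd1 (0.89 ± 0.18), Acly (0.75 ± 0.09) and Elovl6 (0.64 ± 0.12). The carboxylase Acaca (−0.59 ± 0.11) and the synthase Fasn (−0.30 ± 0.12) were lower in the same tumours, the latter not without KPB1-A replicate 2 (−0.26, edgeR adjusted p = 0.0551). In 2224, 3 of 10 passed (38.7% of all genes, 24% higher and 14.8% lower), all higher: Thrsp (3.37 ± 0.31), Acss2 (1.77 ± 0.15) and Scd1 (1.34 ± 0.27). In 2225, 6 of 10 passed (61% of all genes, 34.2% higher and 26.8% lower): Thrsp (3.41 ± 0.24) and Acss2 (0.59 ± 0.12) were higher and Scd1 (−1.39 ± 0.23), Srebf1 (−0.93 ± 0.15), Fasn (−0.55 ± 0.13) and Acly (−0.46 ± 0.11) lower. Thrsp was therefore called higher in 2225 where Srebf1 and Fasn were called lower. The log2 reference for Thrsp takes in models with almost none of it, such as KPB1-A at a mean of 0.0773 CPM. In CPM the mean of Thrsp was below the average of the other models in 2225 (31.3 against 50.5). The same held in 2224 (30.5 against 50.6) and 2250 (41.4 against 49.7).

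The model 2153 combined a high Scd1 (1.87 ± 0.20, SE) and Acaca (0.37 ± 0.12) with a low Acss2 (−2.95 ± 0.18), Thrsp (−2.67 ± 0.42), Acly (−0.71 ± 0.13) and Fasn (−0.40 ± 0.15), 6 of 10 genes called against 53.1% of all genes (29.4% higher, 23.6% lower). In 2208, 6 of 10 passed (54.2% of all genes, 29.4% higher and 24.7% lower), with Me1 (0.94 ± 0.16), Srebf1 (0.71 ± 0.13) and Scd1 (0.60 ± 0.18) higher and Thrsp (−2.24 ± 0.34), Elovl6 (−0.49 ± 0.12) and Fasn (−0.27 ± 0.12) lower. The call of Fasn in 2208 had an edgeR adjusted p of 0.043 and was lost in 11 of the 35 fits that left out 1 library (from −0.26 to −0.23, adjusted p of 0.0502 to 0.0801). In 2336, 6 of 10 passed (55.5% of all genes, 30.2% higher and 25.4% lower). Thrsp (4.19 ± 0.27), Srebf1 (0.43 ± 0.19) and Acss2 (0.40 ± 0.16) were higher there and Scd1 (−0.88 ± 0.30), Me1 (−0.68 ± 0.26) and Scd2 (−0.62 ± 0.19) lower. The 5 libraries of 2336 were split: Me1 was 33.3, 31.4 and 36.3 CPM in replicates 1 to 3 and 137 and 98.3 CPM in replicates 4 and 5, and Acss2 was 15.1, 16.4 and 15.2 against 33.2 and 32.3 CPM. Leaving out a single library ended the call of Me1 (replicate 1, 2 or 3, lowest size −0.50, edgeR adjusted p = 0.130), Acss2 (replicate 4 or 5, 0.21, 0.327) and Srebf1 (any of 8 libraries, 4 of them of 2336, lowest 0.35, 0.151).

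In 9263, 7 of 10 passed (54.4% of all genes, 32.5% higher and 21.9% lower). Acaca (0.75 ± 0.11, SE) and Acly (0.40 ± 0.12) were higher, while Thrsp (−2.63 ± 0.42), Me1 (−1.90 ± 0.25), Srebf1 (−1.52 ± 0.19), Scd2 (−1.39 ± 0.18) and Elovl6 (−0.37 ± 0.15, not without KPB1-A replicate 2: −0.30, edgeR adjusted p = 0.0826) were lower. The carboxylase was thus highest in a model in which the regulator Srebf1 was among the lowest. In 4T1, 5 of 10 were lower and 0 higher (49.1% of all genes passed, 25.5% higher and 23.6% lower): Thrsp (−4.75 ± 0.57), Scd1 (−3.26 ± 0.37), Me1 (−1.68 ± 0.29), Srebf1 (−0.97 ± 0.21) and Acaca (−0.88 ± 0.15). In E0771, 7 of 10 were lower and 0 higher (56.4% of all genes passed in E0771, 29.4% higher and 26.9% lower), led by Thrsp (−4.17 ± 0.71), Scd1 (−1.85 ± 0.42) and Me1 (−1.53 ± 0.36). Leaving out the 2 of its 3 libraries that exceeded 100 CPM of adipocyte markers keeps 1 library, too few to show whether these calls hold. T12 had 4 lower genes (23.8% of all genes, 48.2% in either direction), Thrsp (−5.08 ± 0.75), Srebf1 (−1.71 ± 0.29), Acss2 (−1.52 ± 0.24) and Scd1 (−1.30 ± 0.40), and 1 higher, Elovl6 (0.72 ± 0.20, 24.4% of all genes).

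For T12 the call of Scd1 ended without its replicate 2 (−1.09, edgeR adjusted p = 0.0610) and that of Elovl6 without replicate 3 (0.52, 0.0864), while Thrsp was −5.82 without replicate 3. In KPB1-A, with 2 libraries, Thrsp (−5.91 ± 1.06, SE), Elovl6 (−1.44 ± 0.31) and Acly (−0.81 ± 0.24) were lower and 0 higher (39.2% of all genes passed in KPB1-A, 24.9% higher and 14.4% lower). Thrsp alone stayed called without replicate 1 (Acly −0.67, edgeR adjusted p = 0.129, Elovl6 −0.90, 0.0801), and without replicate 2 Elovl6 was −2.29 and Thrsp −6.62. Against the mean of MMTV-NEU and MMTV-PYMT, the models of the same strain and those in which all 10 genes were high, 8 of 10 genes were lower in KPB1-A, beside 20.3% of all genes.

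Markers of other cells also stood apart in the 3 models with low Srebf1, Scd1 and Thrsp. Of all genes tested 24.4% were higher and 23.8% lower in T12, 29.4% and 26.9% in E0771, and 25.5% and 23.6% in 4T1. All 6 epithelial markers were lower in T12 and in E0771, but in 4T1 3 of 6 were higher and 0 lower, with a summed level of 2509 to 2862 CPM. In 4T1 Scd1 was the lowest of the series and Srebf1 averaged 146 CPM, beside 149 CPM in E0771. Macrophage markers were higher in all 3 models, 6 of 7 in T12 (median log2 difference 1.84), 5 of 7 in E0771 (1.87) and 6 of 7 in 4T1 (1.79). Of the 7 fibroblast markers 5 were higher in 4T1 (1.42), and all 7 muscle markers were higher in E0771 (4.36). The part of these cells in the lower levels of the 10 genes was not tested.

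The rest of the pathway was read from lists of related genes. Beside each count below, 34% of all genes tested were higher and 28.4% lower in MMTV-NEU. In MMTV-PYMT the shares were 31% and 20.5%. Counts near these shares say little about a list. In MMTV-NEU, 6 of 16 other regulators were higher and 4 lower (medians over each list: 0.01 for the regulators, against −0.02 for all genes). Prkaa2, a catalytic subunit of the AMP-activated kinase that restrains acetyl-CoA carboxylase, was 77.6 ± 14.7 CPM (SD, n = 8) in MMTV-NEU and 74.1 ± 26.8 CPM (n = 5) in MMTV-PYMT, a log2 difference of 4.48 ± 0.40 (SE) for MMTV-NEU, and at most 49.5 CPM in a library of any other model. Mlxipl, the carbohydrate-sensing factor ChREBP, differed by 1.33, Insig2, which holds SREBP precursors in the endoplasmic reticulum, by 0.78 and the coactivator Ppargc1b by −0.97. Srebf2, the factor of cholesterol synthesis related to Srebf1, was lower (−0.35 ± 0.10, edgeR adjusted p = 0.00301). In MMTV-PYMT 7 of the 16 regulators were higher and 2 lower.

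Among 12 genes of acetyl-CoA and NADPH supply, 7 were higher and 2 lower in MMTV-NEU (median 0.57), and 8 and 2 in MMTV-PYMT (0.72). Acss1, the mitochondrial acetyl-CoA synthetase, was 240 CPM in MMTV-NEU (3.19 ± 0.12, SE), Aldh1l1, which oxidises formyl-tetrahydrofolate and yields NADPH, differed by 2.54, and Acacb, the carboxylase of the mitochondrial surface, by 1.48. Mthfd2, a mitochondrial folate enzyme, was lower by −2.91 ± 0.18. Of 17 other elongases and desaturases 8 were higher and 5 lower in MMTV-NEU (median 0.03) and 9 and 1 in MMTV-PYMT (0.45). The elongase of very long chains Elovl4 was lower in MMTV-NEU (−3.38 ± 0.64) and higher in MMTV-PYMT (3.40 ± 0.42), and the direct difference of the 2 models was −6.26 ± 0.80 (edgeR adjusted p = 3.65e-09). Elovl7 (1.90) and Fads6 (1.89) were higher and Scd4 (−2.06) lower in MMTV-NEU. Elovl4 averaged 0.134 CPM in MMTV-NEU and 11.2 CPM in MMTV-PYMT, and Scd4 0.188 CPM in MMTV-NEU, levels near the floor in MMTV-NEU.

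Of 11 genes of milk fat and fatty acid uptake, 9 were higher and 1 lower in MMTV-NEU (median 1.83), and 7 were higher and 0 lower in MMTV-PYMT (1.29). Btn1a1, butyrophilin of the milk fat globule, was 447 CPM in MMTV-NEU, Xdh, its partner on the globule, 859 CPM, and Olah, the thioesterase that ends synthesis at medium chain length in mammary epithelium, 4.14 CPM, with log2 differences of 8.29, 4.18 and 8.61. The fatty acid carrier Cd36 (26.7 to 1030 CPM in MMTV-NEU, median 362 CPM) was 4.66 ± 0.85 (SE) higher on the log2 scale in MMTV-NEU than in MMTV-PYMT (edgeR adjusted p = 1.12e-05). Cd36 is also abundant in adipocytes, whose marker levels are given above. In triglyceride synthesis 6 of 16 genes were higher and 5 lower in MMTV-NEU, and 5 and 6 in MMTV-PYMT (medians −0.00 and −0.15). Acsl4, which activates arachidonate and similar chains, was 2115 ± 475 CPM in MMTV-NEU (SD, n = 8), against 706 ± 375 CPM in MMTV-PYMT and at most 681 CPM in a library of any other model. Dgat2, the last enzyme of triglyceride synthesis (2.49), and Acsl1 (2.37) were higher and Agpat4 (−2.42) lower.

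In fatty acid oxidation 7 of 12 genes were higher and 2 lower in MMTV-NEU (median 0.29), and 6 and 1 in MMTV-PYMT (0.28). Cpt1a, which lets fatty acids into mitochondria, was lower in MMTV-NEU (31.1 CPM, −1.69 ± 0.15, SE), as was Acadl (−0.91). Ppara (1.85, at only 1.41 CPM in MMTV-NEU) and Acadvl (0.68) were higher. In cholesterol synthesis 4 of 15 genes were higher and 6 lower in MMTV-NEU (median −0.13) and 3 and 5 in MMTV-PYMT (−0.07). Mvk (−0.77) and Sqle (−0.69) were lower and Dhcr7 (0.92) higher in MMTV-NEU. In 2250, 9263 and E0771, 11, 8 and 8 of these 15 genes were higher and 0 lower (of all genes 32.1%, 32.5% and 29.4% were higher there), with medians of 0.51, 0.45 and 0.74. In 2225 and 4T1, 12 and 9 were lower and 0 higher (of all genes 26.8% and 23.6% were lower), with medians of −0.46 and −0.72. Srebf1 was lower in 9263 and E0771, where cholesterol genes were higher, and lower in 2225 and 4T1, where they were lower, while it was not called in 2250 (0.27, edgeR adjusted p = 0.0755).

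The 8 MMTV-NEU libraries differed among themselves, and by library number they form 3 runs, replicates 1 to 3, 4 and 5, and 6 to 8. Srebf1 in replicates 1 to 8 measured 3560, 3175, 4632, 2060, 1072, 1511, 2023 and 1102 CPM, so that the 3 libraries of the lowest numbers were above the other 5. Thrsp measured 154, 133, 184, 88.5, 50.5, 117, 104 and 45.5 CPM, in nearly the same order and with the same 3 on top. Fasn measured 969, 703, 1108, 603, 493, 1105, 872 and 567 CPM, with replicates 3 and 6 highest. Scd2 measured 477, 1008, 703, 1265, 1082, 833, 1154 and 2732 CPM, lowest in replicate 1 and highest in replicate 8. Scd1 measured 2176, 1787, 4678, 2555, 2043, 3134, 4189 and 2005 CPM, without such an order.

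**Figure D3:**
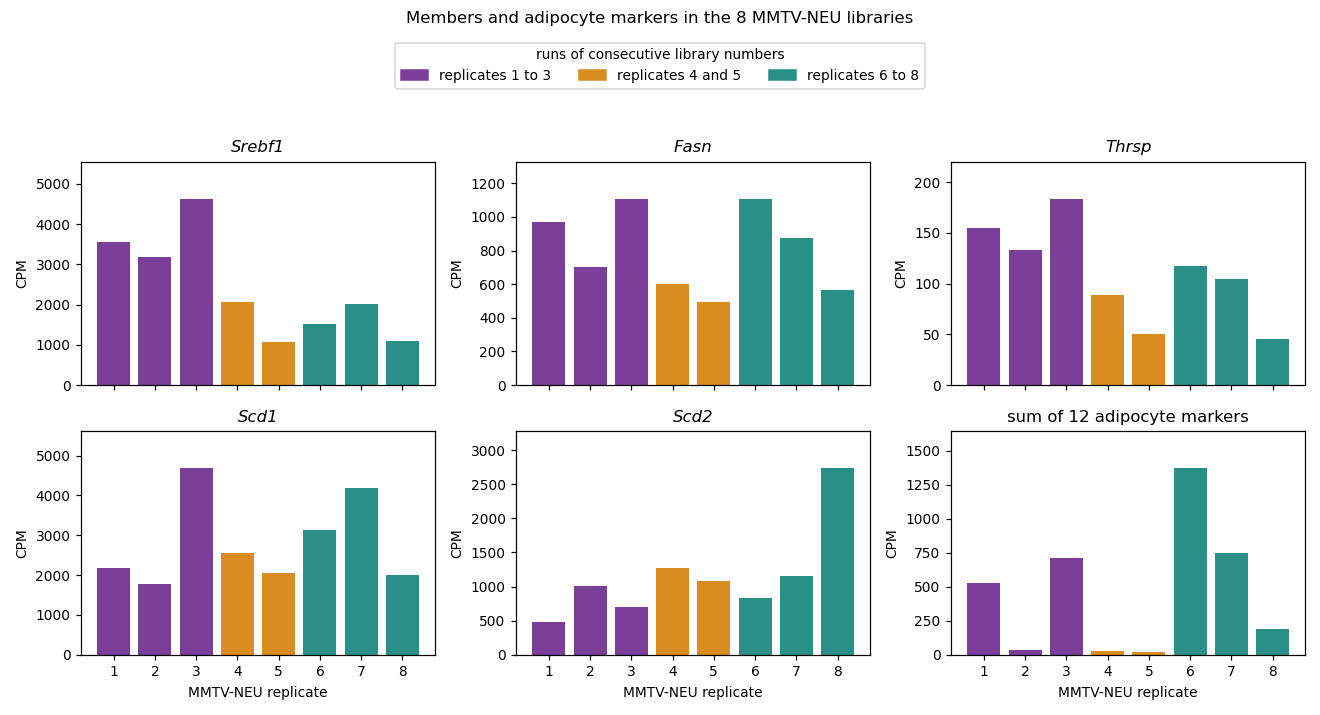
CPM of Srebf1, Fasn, Thrsp, Scd1 and Scd2 and the sum of 12 adipocyte markers in each MMTV-NEU library, with bars coloured by the run of library numbers. Srebf1 and Thrsp are highest in replicates 1 to 3, Scd2 is highest in replicate 8 (2732 CPM), and the adipocyte sum ranges from 20.8 to 1371 CPM.

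For the 45 pairs of genes, Pearson r of log2 CPM over these 8 libraries was tested by an exact two-sided permutation test over all 40320 orders and adjusted by Benjamini-Hochberg over the 45 pairs. None of the 45 passed the adjustment (0 also by Spearman rho), 30 had a positive r, and 8 had an unadjusted p under 0.05, 7 of them positive. The closest was Srebf1 with Thrsp (r = 0.92, exact permutation p = 0.00161, adjusted 0.0725; rho = 0.88, p = 0.00724), where r was 0.84 without the 2 libraries farthest from the median of Srebf1. Fasn had r = 0.84 with Thrsp (exact permutation p = 0.00784; rho = 0.86), 0.85 with Acaca (p = 0.0137; rho = 0.71) and 0.82 with Acly (p = 0.02; rho = 0.83). Acaca with Scd1 (0.82, exact permutation p = 0.0159; rho = 0.88), Acly with Thrsp (0.76, p = 0.0323; rho = 0.71) and Acly with Scd1 (0.75, p = 0.0398; rho = 0.71) were the other positive pairs. Without the 2 farthest libraries r of Acly with Scd1 was 0.20, so that pair rests on them. Scd2 with Thrsp was the negative pair (r = −0.80, exact permutation p = 0.011, adjusted 0.143; rho = −0.88, p = 0.00724).

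For Srebf1 and the enzyme genes r was 0.63 with Fasn (exact permutation p = 0.103), 0.69 with Acly (p = 0.0664), 0.34 with Scd1 and 0.28 with Acaca (p = 0.481). Those orders mix the runs of library numbers, so r was taken again after centring each gene on its run and tested over the 72 orders that stay within runs, an alternative chosen after seeing the data. None of the 45 pairs passed the adjustment, and 6 had an unadjusted p under 0.05. With 0.0139 the smallest p that 72 orders can give, no pair could pass by itself, so that the lack of a call says little. With Srebf1 the centred r was 0.79 for Scd1 (exact permutation p = 0.0139, adjusted 0.156), 0.80 for Acly (p = 0.0278), 0.72 for Acaca (p = 0.0972), 0.68 for Fasn (p = 0.0972) and 0.85 for Thrsp (p = 0.0694). It was 0.99 for Fasn with Acaca and 0.91 for Fasn with Thrsp (exact permutation p = 0.0139 for each), 0.68 for Fasn with Acly and −0.72 for Scd2 with Thrsp (p = 0.153). The differences between values of r with and without centring were not tested. Me1 and Acss2 had no pair with an unadjusted p under 0.05, and neither had Elovl6.

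**Figure D4:**
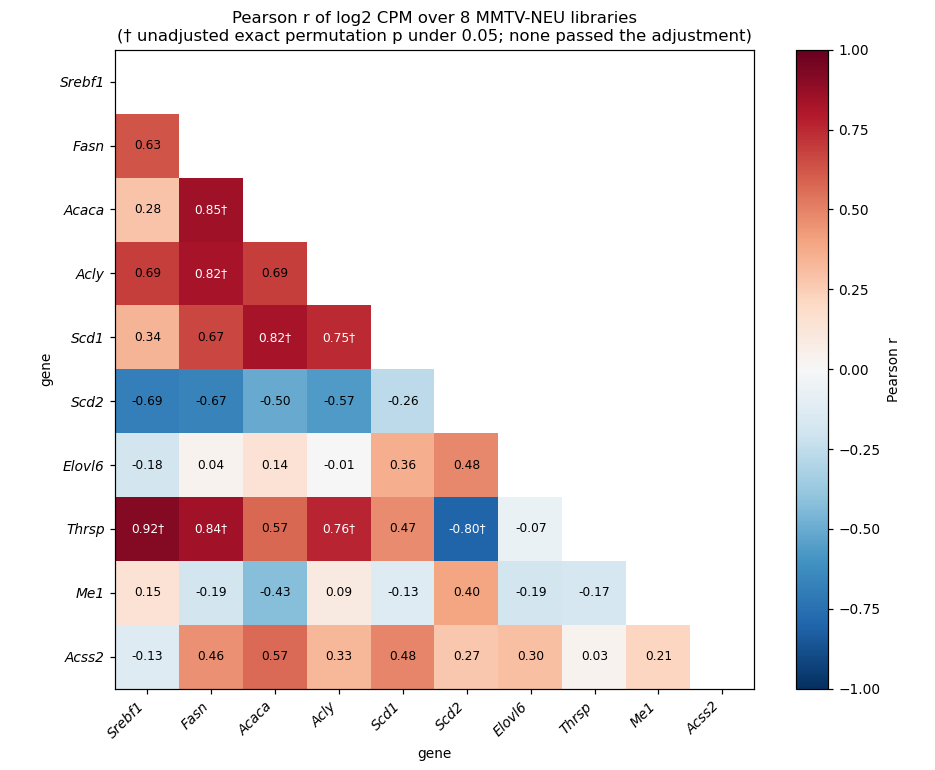
Pearson r of log2 CPM for each of the 45 pairs over the 8 MMTV-NEU libraries, with a dagger where the unadjusted exact permutation p was under 0.05. The daggers lie among Srebf1, Fasn, Acaca, Acly, Scd1 and Thrsp, plus the negative pair of Scd2 and Thrsp, and none of the 45 passed the adjustment.

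Markers of other cells also varied among the 8 libraries. Of 70 relations of the 10 genes with 6 summed marker lists and with the total count, 10 had an unadjusted exact permutation p under 0.05 and 0 passed the adjustment, by Pearson or Spearman. Fasn had r = 0.86 with the summed adipocyte markers (exact permutation p = 0.0139, adjusted 0.216; rho = 0.81), and Acaca did with r = 0.81 (p = 0.0233, adjusted 0.233). Fasn had nearly the same r with macrophage (0.85, exact permutation p = 0.0121) and muscle markers (0.85, p = 0.0154), and Acly with milk protein genes (0.84, p = 0.0129; 0.54 without the 2 farthest libraries). For Srebf1 r with the adipocyte sum was 0.26 (exact permutation p = 0.511). The part of these cells in the relations among the 10 genes was not tested.

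The same 45 pairs were computed in the 5 other models with at least 6 libraries, 225 pairs in 1 family. By Pearson r 4 of 45 passed in 9263, 1 in 2153 and 0 in 2208, 2225 and 2250 and by Spearman rho 1 passed in each of 9263, 2153 and 2225 (Acaca with Elovl6 in the last). In 9263 all 45 pairs had a positive r (median 0.69), and Acaca with Scd1 (r = 0.96, exact permutation p = 0.000198, adjusted 0.0445; rho = 1), Acaca with Acly (0.94, p = 0.000397, adjusted 0.0446; rho = 0.96), Scd1 with Scd2 (0.91, p = 0.000794; rho = 0.89) and Acly with Scd1 (0.88, p = 0.000595; rho = 0.96) passed. In 2153 the same Acly and Scd1 ran in opposite directions (r = −0.91, exact permutation p = 0.000992, adjusted 0.0446; rho = −1). The 7 libraries of each of these 2 models also form runs of consecutive numbers, of 1, 3 and 3. Centred on these runs, 27 of the 45 pairs in 9263 had a positive r (median 0.25), with 0.95 for Acaca with Scd1, 0.96 for Acaca with Acly, 0.84 for Acly with Scd1 (exact permutation p = 0.0278 for each, over the 36 orders within runs) and 0.62 for Scd1 with Scd2 (p = 0.0556). In 2153 the centred r of Acly with Scd1 was −0.69 (exact permutation p = 0.361). None of these passed the adjustment over the 45 pairs of a model, with 0.0278 the smallest p that 36 orders can give. Without centring, Fasn with Acaca had r = 0.91 in 2153, 0.69 in 2208, 0.78 in 2225, 0.28 in 2250 and 0.79 in 9263, and Srebf1 with Thrsp 0.78, 0.27, −0.48, 0.69 and 0.82, none of them past the adjustment. Whether r differed between models was not tested.

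Scd1 and Scd2 are neighbouring paralogs on chromosome 19 that share 2.66% of the 50-base stretches of Scd2, and their ratio within a library does not depend on scaling. The deposited count was whole in only 18.3% of libraries for Scd1 and 15.9% for Scd2. The log2 ratio of Scd1 to Scd2 differed among the 13 models (F = 46.7, permutation test with 100000 resamples, p = 1e-05, the smallest these can give). Its mean was −3.80 ± 0.56 (SD, n = 5) in 4T1, where Scd2 counts were 14.0-fold those of Scd1, −2.99 ± 0.04 in E0771 (n = 3) and −2.16 ± 0.15 in 2225 (n = 10). It was near 0 in 2208 (−0.25 ± 0.46, n = 12) and 9263 (−0.14 ± 0.39, n = 7), and highest in 2153 (0.75 ± 0.48, n = 7) and MMTV-NEU (1.38 ± 1.0, n = 8). Scd1 was above Scd2 in all 7 libraries of 2153 and in 7 of 8 of MMTV-NEU, where replicate 8 had −0.45, but in only 3 of 5 of MMTV-PYMT (0.38 ± 0.86). In 2250, highest for Scd2, the ratio was −1.50 ± 0.50 (n = 11) and Scd1 was above Scd2 in 0 of 11 libraries.

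**Figure D5:**
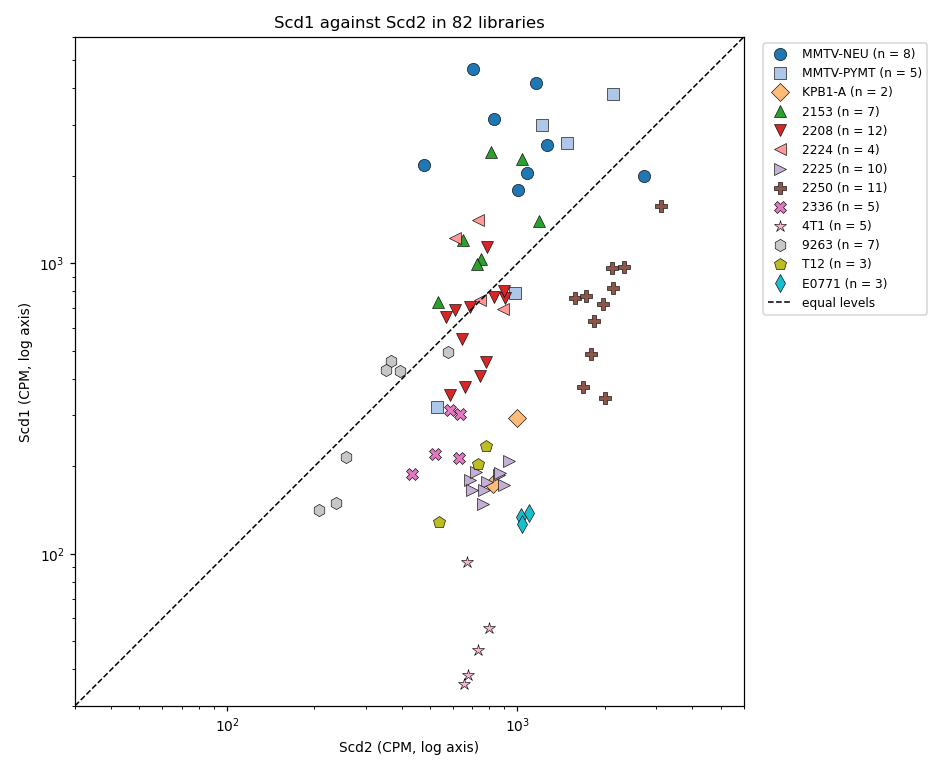
Scd1 against Scd2 in each of the 82 libraries (CPM, log axes), with 1 symbol per model and a dashed line at equal levels. The 4T1 libraries lie lowest (35.5 to 93.8 CPM of Scd1), those of 2250 lie far to the right (1577 to 3113 CPM of Scd2), and 7 of 8 MMTV-NEU libraries lie above the line.

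Over the 13 model means, r between the 10 genes was positive for 42 of 45 pairs with a median of 0.42, as a description without a test. It was highest for Scd1 with Me1 (0.80) and Srebf1 with Me1 (0.79) and lowest for Acaca with Scd2 (−0.37). Among 13142 other genes the closest to Fasn were Ces1d (r = 0.92), Egf (0.90) and Zbtb16 (0.89). For Scd1 they were Trim46 (0.94), Col4a4 (0.91) and Ppip5k1 (0.91), and for Thrsp Neu1 (0.93), Acss1 (0.93) and Tmem234 (0.90). Over the 8 MMTV-NEU libraries the closest to Fasn were H2-Eb1 (0.99), Dusp2 (0.98) and Pid1 (0.98). Dusp2 averaged only 0.501 CPM in MMTV-NEU. All these genes were picked as the closest of 13142 over 13 or 8 points, so that high values of r can come from the search alone. The 8 MMTV-NEU libraries share their strain and scaling, while the 13 models lie on 3 strains and several share one.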

How the data were processed

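RNA sequencing of 82 mouse mammary tumours of 13 models was deposited as 1 table of estimated counts per gene and 1 table of normalized values. Per the submitters' processing notes the tools were STAR, SAMtools, Picard and Salmon with mm10, without versions or roles. The deposited expected counts were not all whole (85.5% of values were), and they were rounded to whole numbers. The deposited normalized signal was, by its values, the count divided by the 75th percentile of a library's non-zero counts, with 1 at a count of 0 (within 1% for all values checked), and it served as an alternative. Strand and read length are not given in the sources used here.

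Counts were filtered (filterByExpr by model, minimum count 10) and scaled by TMM, and 22847 genes were fitted over 82 libraries with 69 residual degrees of freedom by the quasi-likelihood test of edgeR 4.0.16 in R 4.3.3, with Benjamini-Hochberg adjustment over all genes and a threshold of 0.05. Log2 CPM used a prior count of 2. Tested on simulated data for MMTV-NEU against the other models (22847 genes), the fit called 89.5% of 200 genes changed 2-fold and 98% of 200 changed 4-fold. Totals of 14444938 to 132712507 counts per library limit the precision of low genes such as Thrsp in KPB1-A. Alternatives were DESeq2 1.42.0, its size factors, no filter, limma 3.58.1 on the normalized values, other references and leaving out 1 library at a time (35 fits, over MMTV-NEU and the models with 5 or fewer libraries, which kept the gene set and dispersion trend). All deposited library columns were used. Positions are those of GENCODE M21 on mm10.

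The 10 genes and the lists of related genes and markers were chosen with earlier results of these data known. From each list the text names up to 4 genes with the greatest absolute log2 difference in MMTV-NEU among those that passed, and up to 2 in another model. For Fasn, Scd1 and Thrsp the 3 genes with the highest r are given. Srebf2 falls outside this rule and was named after its values were seen. One gene that the rule names is not reported here. Runs of library numbers are groups of neighbouring numbers in the labels, which do not say what the numbers stand for.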

Additional observations from a re-analysis of the deposited data

Results flagged for a closer look

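Of 80 groups of 4 to 10 libraries (10 genes in 8 models), 2 held a library far from the others of its model, and chance flags about 1 in 20 groups. Acly in 4T1 replicate 1 was the highest of 5 at 316 CPM, where the other 4 ran from 237 to 253 CPM. Elovl6 in MMTV-NEU replicate 1 was the lowest of 8 at 59.9 CPM, where the other 7 ran from 89.2 to 121 CPM.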

How the results depend on the processing

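All 86 calls of single genes kept their direction and side of the threshold with DESeq2 and with its size factors, 84 of them without a filter, 79 with limma on the normalized values and 71 without the libraries above 100 CPM of adipocyte markers. Without T12 and E0771 in the reference 78 were kept and 4 lost, and 70 were kept whichever of the 35 libraries was left out. Against models of the same strain 62 were kept, 12 lost and 1 turned (Acaca in MMTV-PYMT, −0.087, edgeR adjusted p = 0.771). With that reference 6 genes passed in MMTV-NEU, 6 in MMTV-PYMT and 8 in KPB1-A, beside the shares of all genes given above. In 2224 the count was 5, for which the share of all genes is not given here. E0771 has no other model of its strain. Leaving out the libraries rich in adipocyte markers keeps 1 library in each of E0771 and T12. These were assumed to vary like the other models, and no count is given for them. Leaving out 1 library gave as few as 1 gene in KPB1-A (without replicate 1). For MMTV-NEU against MMTV-PYMT 2 genes passed when only these models were fitted. With the library-number run as a term, and without MMTV-NEU replicates 1 to 3, 1 passed. As few as 2 passed when 1 library was left out (without MMTV-PYMT replicate 2). The shares of all genes that passed in these refits are not given here. Of the 45 pairs in MMTV-NEU 1 passed on the normalized values and 0 to 1 when 1 library was left out. It was 0 over the orders within runs of library numbers, where a smallest p of 0.0139 left little room to pass. The causes were not tested. Limma on the normalized values moved the median of all genes by 0.14 in 2224, 0.11 in 4T1 and 0.18 in T12 (log2). No paired analysis was possible because the labels give no replicate numbers shared between models; the library-number run, which is not a replicate number, was the only such term fitted. The number of libraries, 2 in KPB1-A and 3 in T12 and E0771, limits what those models can show.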
